A study of Mus musculus with 20 samples.

Results

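The genes described here encode the proteins of the cytosolic ribosome, and their mRNAs were read by RNAseq in pancreatic islets of mice that lack mitofusin 1, mitofusin 2 or both in β-cells. They were chosen by name: every protein-coding gene of the count table whose symbol starts with Rpl or Rps and a digit, together with *Rplp0*, *Rplp1*, *Rplp2*, *Rpsa* and *Fau*. The *Rps6k* kinases and symbols that carry a pseudogene suffix were left out. The rule found 86 of the 28632 genes counted, and the rule itself uses names alone, not measured values. Of these, 34 belong to the small 40S subunit and 50 to the large 60S subunit, including paralogues. The other 2, *Rps19bp1* and *Rpl7l1*, carry such a symbol but encode a nucleolar partner of *Rps19* and a relative of *Rpl7* that acts in ribosome assembly. *Rps4l* is annotated as a pseudogene and was therefore left out, and *Rpl10l* was not analysed here.

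Islets came from 12-week-old mice of both sexes on the C57BL/6N background. There were 6 Ctrl, 4 β-Mfn1KO, 5 β-Mfn2KO and 5 β-Mfn1/2DKO libraries. The knockouts carry loxP sites around an exon of *Mfn1*, of *Mfn2* or of both, cut by Cre from the *Ins1* promoter, which acts in β-cells only. Alpha, delta, endothelial and any exocrine cells of the islet keep both genes. The labels call the controls wild type, whereas the study's methods pool mice that carry the Cre alone with mice that carry floxed alleles alone. All islets were isolated with collagenase and cultured for 24 h before RNA was taken. Levels are given as normalized counts, that is, counts brought to 1 common library size with edgeR's TMM factors. *Mfn1* mRNA stood at 1518 to 1807 in Ctrl, at 621 to 770 in β-Mfn1KO and at 687 to 1062 in β-Mfn1/2DKO. *Mfn2* mRNA stood at 3089 to 4373 in Ctrl, at 1474 to 1688 in β-Mfn2KO and at 2022 to 2131 in β-Mfn1/2DKO. Depth ran from 12.4 to 122.9 M counts (M, mega) and went with genotype. All 5 β-Mfn1/2DKO libraries and β-Mfn2KO 4 and 5 were deeper than 40 M counts, and no other library was. Depth and the double knockout can thus not be told apart in a comparison with Ctrl, and the main results are given again with depth class in the fit. β-Mfn1/2DKO 4 and 5, and less so β-Mfn2KO 4, also stood apart by mRNAs of acinar cells, and the counts of members called are given without them.

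A ribosome joins a small subunit, which decodes the mRNA, to a large subunit, which makes the peptide bond, and each subunit is built on ribosomal RNA with 1 copy of most of its proteins. Their genes are spread over the chromosomes and are transcribed at high rates in every growing cell. The mRNAs usually start with a C followed by an uninterrupted run of pyrimidines, the terminal oligopyrimidine or TOP motif, through which mTOR and the RNA-binding protein *Larp1* set how well they are translated. In β-cells, which devote much of their protein synthesis to insulin, ribosomes also carry the load of secretory translation. A count of mRNA says nothing of how well these mRNAs are translated.

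RefSeq start sites (GRCm38.p6) were at hand for 66 of the 86 genes. A run of a C and at least 4 pyrimidines, beginning within 5 bases of the start in the sense of transcription, was found in 31 of the 66 (47.0%) and in 21.2% of all 27025 genes with a start site. The ETS-family core CCGGAAG, searched on both strands from 250 bases before to 50 bases after the start, was found in 26 of the 66 (39.4%) and in 9.93% of all genes. The YY1 core AAGATGGC, searched in the same way, was found in 7 (10.6%) and in 3.19% of all genes, and its first letters can overlap the end of the ETS core. The TATA box TATAAA was found in the 40 bases before the start, in the sense of transcription only, in 1 gene, *Rpl22l1* (1.52%), and in 2.78% of all genes. The lines below show the 10 bases before and the 20 bases from the start of some of these genes, with the pyrimidine run in capitals. *Fau*, *Rps10*, *Rps18* and *Rps6* have long runs, *Rpl38* has one although its mRNA did not rise, and *Rpl13*, with the highest fold change, has none. *Rpl22* and *Rpl22l1*, and *Rps27* and *Rps27l*, are paralogues that moved differently or not at all, and *Rpl36al* is the gene that fell.
Fau, chr19:6057937-6057966, plus strand: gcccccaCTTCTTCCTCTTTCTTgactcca
Rps10, chr17:27635225-27635254, minus strand: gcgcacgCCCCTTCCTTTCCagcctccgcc
Rps18, chr17:33955646-33955675, minus strand: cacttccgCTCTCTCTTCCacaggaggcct
Rps6, chr4:86857348-86857377, minus strand: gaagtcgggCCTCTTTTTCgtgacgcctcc
Rpl38, chr11:114668570-114668599, plus strand: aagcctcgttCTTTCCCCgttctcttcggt
Rpl13, chr8:123102340-123102369, plus strand: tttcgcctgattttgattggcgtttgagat
Rpl36al, chr12:69184048-69184077, minus strand: ccgtcgctcaggttcagttccgacttccgc
Rpl22, chr4:152325716-152325745, plus strand: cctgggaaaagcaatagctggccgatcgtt
Rpl22l1, chr3:28805498-28805527, plus strand: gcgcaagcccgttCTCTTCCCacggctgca
Rps27, chr3:90213629-90213658, minus strand: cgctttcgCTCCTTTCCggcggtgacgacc
Rps27l, chr9:66946076-66946105, plus strand: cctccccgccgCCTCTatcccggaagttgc
Genes with the run had a median log2 fold change of 0.25 in β-Mfn1/2DKO against Ctrl (30 genes of at least 100 normalized counts, 17 higher and 0 lower by edgeR's test at an adjusted p under 0.05). Genes without it had a median of 0.33 (33 genes, 23 higher and 1 lower). Of all genes 9.59% were called higher and 6.86% lower in this comparison, and of genes with a mean of at least 1000 counts 19.1% higher. A match of letters is not a measured TOP motif, and RefSeq starts can lie some bases from those used in islets.

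The mRNAs were among the abundant ones of the islet. Of the 86, 83 averaged 100 normalized counts or more over the 20 libraries and 82 a mean of at least 1000, a level reached by 7060 of all 28632 genes. Per kilobase of transcript, the mean level in Ctrl was highest for *Rps14* (46969 normalized counts per kilobase), *Rpl41* (39978), *Rps2* (38127), *Rpl13a* (33962) and *Rplp1* (32678). It was lowest among the subunit proteins above 1000 counts for *Rps20* (1580), *Rpl39* (3858), *Rps27l* (4320) and *Rpl22l1* (5180). *Rps19bp1* (646) and *Rpl7l1* (2467), which are not subunit proteins, stood below most of the set on the same scale. These per-length levels depend on the transcript chosen for each gene and on reads shared with pseudogenes, since 81 of the 86 genes share stretches of 75 bases with another annotated gene. The genes that share sequence with *Rpl5*, for example, hold 83.5% as many counts as *Rpl5* itself. The 3 members below 100 counts were *Rpl3l*, *Rpl39l* and *Rps27rt*. *Rpl3l*, the *Rpl3* paralogue of skeletal and heart muscle, had 0 counts in all Ctrl, β-Mfn1KO and β-Mfn2KO libraries and 4 counts over the 5 β-Mfn1/2DKO libraries. *Rpl39l*, the *Rpl39* paralogue of testis, had 4 counts over Ctrl, 4 over β-Mfn1KO, 47 over β-Mfn2KO, of which 46 were in 1 library, and 7 over β-Mfn1/2DKO. *Rps27rt* shares 90.3% of its 75-base stretches with other genes, *Rps27* foremost, so its counts are uncertain.

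The share of all counts taken by the set was higher in β-Mfn1/2DKO than in any other library. In Ctrl the share ran from 2.08% through a median of 2.25% to 2.72%. In β-Mfn1KO it was 2.41%, 2.61%, 2.17% and 2.44%, and in β-Mfn2KO 2.08%, 2.16%, 2.27%, 2.38% and 2.77%. In β-Mfn1/2DKO it was 3.17%, 3.5%, 3.05%, 3.16% and 2.83%. The means were 2.33% ± 0.246 (SD, n = 6), 2.41% ± 0.182 (n = 4), 2.33% ± 0.269 (n = 5) and 3.14% ± 0.239 (n = 5) in this order, so the 3 groups that keep 1 mitofusin or both overlapped and the double knockout stood apart. Both subunits took part: the 40S genes held 0.948% ± 0.108 of counts in Ctrl and 1.3% ± 0.102 in β-Mfn1/2DKO, and the 60S genes 1.37% ± 0.138 and 1.83% ± 0.137. The ratio of 60S to 40S counts was 1.45 ± 0.0241 in Ctrl and 1.41 ± 0.0116 in β-Mfn1/2DKO. The 5 genes that share no sequence with another gene were read on their own, at 0.0868% ± 0.0102 of counts in Ctrl and 0.121% ± 0.00951 in β-Mfn1/2DKO. The deep β-Mfn2KO libraries averaged 2.57% and the other 3 of that group 2.17%, so the share also differed with depth inside 1 genotype. Against the deep β-Mfn2KO libraries, the share in β-Mfn1/2DKO was 1.22 times as high, and against Ctrl 1.35 times. When the 100 genes of highest mean and the mtDNA genes were left out of the total, the ratio to Ctrl was 1.21 and the groups overlapped. On that total β-Mfn1/2DKO ran from 3.85% to 4.75%, while Ctrl reached 4%, β-Mfn1KO 4.04% and β-Mfn2KO 3.97%. No p is given for a sum over the set.

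**Figure D1:**
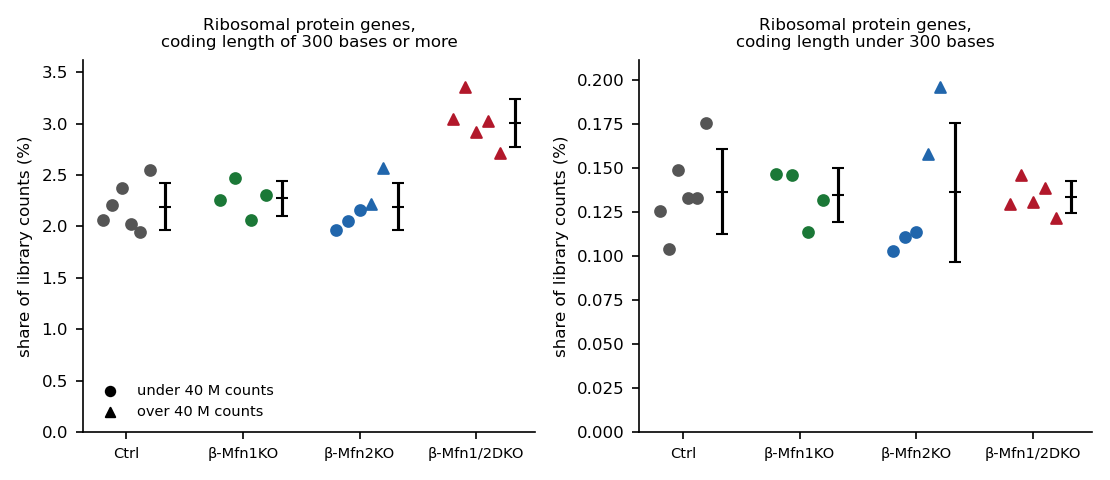
Share of a library's counts (%) taken by ribosomal protein genes with a coding length of 300 bases or more (left) and under 300 bases (right). Each point is 1 library, triangles are libraries over 40 M counts, and bars are the mean ± SD of a group. The longer genes hold more of the counts in all 5 β-Mfn1/2DKO libraries (2.71% to 3.35%) than in any other library, whereas the short genes (0.103% to 0.196% over all libraries) overlap between all groups.

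Most ribosomal protein mRNAs were higher in β-Mfn1/2DKO islets than in Ctrl, by a small amount. None of the 10 members above 100 counts with a coding length under 300 bases was called higher. Of the 86 genes, 56 were higher than in Ctrl, 1 was lower and 29 did not pass an adjusted p under 0.05 (edgeR quasi-likelihood test, Benjamini-Hochberg over all 28632 genes). The same test called 9.59% of all genes higher and 6.86% lower, and 19.1% of genes with a mean of at least 1000 counts higher. The members' share was 65.1%. The median log2 fold change of the set was 0.29, against 0.06 over all genes and 0 over genes of at least 1000 counts, and a typical standard error was 0.08. Only *Rpl13* also passed a fold of 1.5, a threshold that 3.24% of all genes passed upward. In 43 members every β-Mfn1/2DKO library lay above every Ctrl library, which holds for 6.56% of all genes. In 25 members every β-Mfn1/2DKO library lay above all 15 others, which holds for 3.14% of all genes. Of the 40S genes 23 of 34 rose, and of the 60S genes 32 of 50, the latter with the 1 fall. With depth class (over 40 M counts or not) in the fit, 1 member was higher, 8 were lower and the median was 0.1, and the same fit called 1.48% of all genes higher and 1.06% lower. That covariate is set by the 2 deep and 3 other β-Mfn2KO libraries alone. Over all genes 58.3% of the calls were upward, a share that was 85% with total-count scaling and 40.7% with offsets for length and GC, where 67 members were higher and 1 lower, and 60 and 2. In bulk islets a change in the number of cells of a type and a change in mRNA per cell cannot be told apart.

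**Figure D2:**
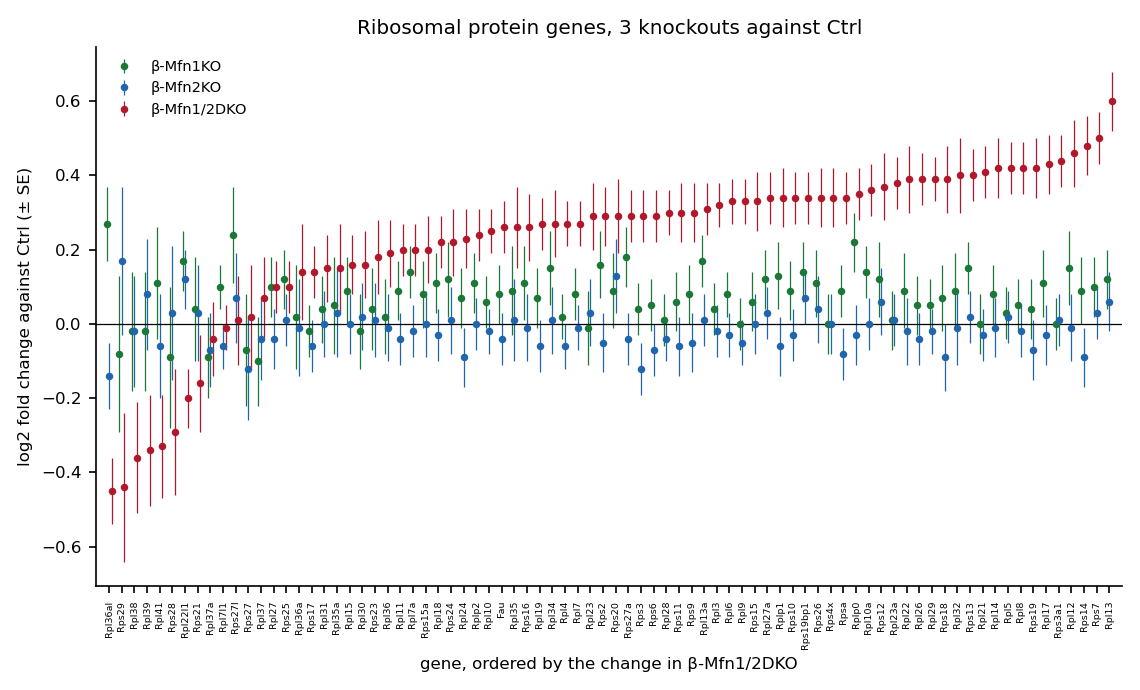
Log2 fold change against Ctrl (± SE) of 80 of the 83 ribosomal protein genes that averaged 100 normalized counts or more, in β-Mfn1KO, β-Mfn2KO and β-Mfn1/2DKO, ordered by the change in β-Mfn1/2DKO. The double knockout runs from -0.45 (*Rpl36al*) to 0.6 (*Rpl13*), while both single knockouts stay between -0.14 and 0.27.

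*Rpl13*, a protein of the large subunit, had the highest fold change among the members above 100 counts. Its normalized counts ran from 15021 through a median of 16456 to 18617 in Ctrl and were 17324, 20022, 16036 and 19232 in β-Mfn1KO. They were 16935, 17367, 16763, 17496 and 18729 in β-Mfn2KO and 26675, 28477, 24139, 24617 and 23187 in β-Mfn1/2DKO. No library of another group reached the lowest double knockout library, and the log2 fold change against Ctrl was 0.60 ± 0.08 (SE, adjusted p = 5.93e-06). It was also the 1 member that passed as higher with depth class in the fit, at 0.51 ± 0.14 (adjusted p = 0.0456). *Rps7*, of the small subunit, ran from 11124 through 12058 to 14554 in Ctrl and was 17155, 18896, 16994, 17579 and 17467 in β-Mfn1/2DKO, a log2 fold change of 0.50 ± 0.07 (adjusted p = 5.32e-05). These groups did not overlap.

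*Rps14* of the small subunit ran from 25545 through 27350 to 31748 in Ctrl and was 36757, 41072, 37813, 39860 and 39677 in β-Mfn1/2DKO (log2 fold change 0.48 ± 0.08, adjusted p = 0.00022). *Rps3a1*, of the same subunit, ran from 20274 through 22914 to 25727 in Ctrl and was 30908, 34024, 30450, 30028 and 29969 in β-Mfn1/2DKO (0.44 ± 0.07, adjusted p = 9.51e-05). Neither gene overlapped between these groups, although *Rps14* reached 36982 in 1 β-Mfn1KO library. *Rpl12*, *Rpl17* and *Rpl5* were also among the highest, with log2 fold changes of 0.46, 0.43 and 0.42. An opposite-strand neighbour of *Rps14*, *Ndst1*, holds 15.4% as many counts as *Rps14*, and whether the counting used strand is not given in the sources used here. β-Mfn1/2DKO 2 was the highest of its group for each of these genes. Leaving it out left 48 members higher than Ctrl and 1 lower, beside 10.3% and 5.46% of all genes.

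The members with a place of their own mostly rose as well. *Rplp0*, *Rplp1* and *Rplp2* form the P stalk, which recruits elongation factors. *Rplp0* ran from 24781 through 27027 to 30574 in Ctrl and was 34567, 39336, 31432, 35086 and 34817 in β-Mfn1/2DKO (0.35 ± 0.07, adjusted p = 0.00175), without overlap between these groups. In β-Mfn1KO it was 32908, 35998, 26623 and 32025, which overlaps both. *Rplp1* and *Rplp2* rose by 0.34 ± 0.08 and 0.24 ± 0.07 on the log2 scale (adjusted p = 0.00585 and 0.028). *Rplp2* did not pass with thinned counts (0.14), the authors' factors (0.18), DESeq2 size factors in edgeR (0.21) or depth class in the fit (0.02). Nor did it pass without Ctrl 1, 4 or 5 or without β-Mfn1/2DKO 2 (0.21 to 0.23, adjusted p = 0.0545 to 0.0732). *Rps27a* and *Fau* are made as fusions to ubiquitin and to a ubiquitin-like protein. *Rps27a* rose by 0.29 ± 0.07 (adjusted p = 0.00566) and *Fau* by 0.26 ± 0.07 (adjusted p = 0.0188).

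*Rpl5* and *Rpl11* form a particle with 5S ribosomal RNA that also holds back Mdm2, the ubiquitin ligase of p53. *Rpl5* ran from 10935 through 11660 to 13754 in Ctrl and was 15531, 16793, 15539, 15405 and 16164 in β-Mfn1/2DKO (0.42 ± 0.07, adjusted p = 0.000153). *Rpl11* ran from 13845 through 14409 to 16481 in Ctrl and was 16469, 18621, 15962, 16692 and 16384 in β-Mfn1/2DKO (0.20 ± 0.07, adjusted p = 0.0702). The *Rpl11* groups overlapped through Ctrl 6, and the gene did not pass. It did pass without Ctrl 6 (0.24, adjusted p = 0.0299), and also without β-Mfn1KO 3, β-Mfn2KO 3, β-Mfn2KO 5 or β-Mfn1/2DKO 3 (0.20 to 0.24, adjusted p = 0.0267 to 0.0458). It passed too with total-count scaling (0.34, adjusted p = 0.00481), with the 2 groups alone (0.21, adjusted p = 0.0348) and with replicate number as a block (0.23, adjusted p = 0.0222). With the authors' factors it also passed (0.26, adjusted p = 0.0146), and with depth class in the fit it was at -0.05 (adjusted p = 0.994). *Rps6*, the ribosomal protein phosphorylated downstream of mTOR, ran from 17431 through 19145 to 20941 in Ctrl and was 23305, 26702, 22176, 22724 and 22861 in β-Mfn1/2DKO (0.29 ± 0.07, adjusted p = 0.00432). In β-Mfn2KO it was 17719, 17840, 17950, 18582 and 19901.

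*Rps19*, *Rps14* and *Rpl35a* are among the genes whose loss of 1 copy causes Diamond-Blackfan anaemia or a related marrow failure in people. *Rps19* ran from 6609 through 7106 to 8281 in Ctrl and was 9788, 11042, 8897, 9611 and 8772 in β-Mfn1/2DKO (0.42 ± 0.08, adjusted p = 0.000411), and *Rps14* rose by 0.48 ± 0.08 (adjusted p = 0.00022). *Rpl35a* was at 5890, 6930, 5714, 6044 and 5461 in β-Mfn1/2DKO, within the Ctrl range of 4448 to 6587 except for 1 library (0.15 ± 0.12, adjusted p = 0.478). *Rpsa*, which on the cell surface also binds laminin, rose by 0.34 ± 0.07 (adjusted p = 0.000789). *Rps4x* and *Rpl10*, both on the X chromosome, rose by 0.34 ± 0.08 and 0.25 ± 0.06 (adjusted p = 0.00309 and 0.00547). *Rps19bp1*, which is not a subunit protein, rose by 0.34 ± 0.07 (adjusted p = 0.00194), from a median of 562.2 in Ctrl to 649.7, 734.3, 655.1, 712.5 and 671 in β-Mfn1/2DKO.

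The change went with the length of the coding sequence. None of the 10 members above 100 counts with a coding length under 300 bases passed in either direction, and their log2 fold changes ran from -0.44 to 0.07 with a median of -0.23. Of the 31 members of 300 to under 450 bases 17 rose and 1 fell (median 0.26), of the 19 of 450 to under 600 bases 18 rose (median 0.38), and of the 23 of 600 bases or more 21 rose (median 0.33). Across the 83 members, which share the same libraries, the log2 fold change correlated with log2 coding length at Pearson's r of 0.665 and Spearman's rho of 0.563. Other genes of at least 1000 counts had medians of -0.06, 0.01, 0.02 and 0 in the same 4 length classes, with 17 of 132 higher and 39 of 132 lower in the shortest. In the longer classes 42 of 307, 87 of 390 and 1143 of 6073 were higher, and 51, 73 and 1118 were lower.

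The short members form a second pattern across libraries. *Rps29*, a zinc-binding protein of the small subunit, ran from 1362 through a median of 2164 to 2957 in Ctrl and was 1647, 1742, 1812, 2956 and 3986 in β-Mfn2KO. It was 1486, 1851, 1510, 1692 and 1488 in β-Mfn1/2DKO (-0.44 ± 0.20, adjusted p = 0.146). *Rpl38*, known for its part in translating Hox mRNAs in the embryo, ran from 2179 through 2774 to 3403 in Ctrl. It was 2068, 2234, 2049, 3291 and 4054 in β-Mfn2KO and 1973, 2517, 2079, 2221 and 2098 in β-Mfn1/2DKO (-0.36 ± 0.15, adjusted p = 0.117). For both genes β-Mfn2KO 4 and 5, the deep libraries, were the highest of their group, and Ctrl 2 was low and Ctrl 6 high. *Rpl39*, *Rpl41*, *Rps28* and *Rps21* had log2 fold changes of -0.34, -0.33, -0.29 and -0.16 with the same libraries high and low. Within β-Mfn2KO, the deep libraries exceeded the others by a median of 0.67 on the log2 scale over the 10 short members (0.44 to 0.99) and of 0.19 over the 73 longer ones (-0.03 to 0.64).

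Against Ctrl the median of the short members was -0.23 in the main fit. Only 1 scaling, chosen after seeing the data, brought it above 0. Deposited beside the counts is a depth-normalized signal whose factors differ between genes of 1 library, and with those factors as offsets the median of the short members was 0.11 and that of the longer ones 0.36. With offsets per library for transcript length and GC content the medians were -0.11 and 0.25. With depth class in the fit they were -0.92 and 0.14, and *Rps29*, *Rpl38*, *Rps28*, *Rpl41*, *Rpl39* and *Rps21* then passed as lower, with *Rpl22l1* and *Rpl36al*. In all 3 of these fits the longer members stood above the short ones. For single genes, the authors' factors moved *Rps27* to 0.56 and *Rpl36* to 0.62, both higher at adjusted p of 2.37e-05 and 9.48e-06, whereas neither passed with TMM scaling. *Rpl36* also passed with the length and GC offsets (0.26, adjusted p = 0.00318).

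**Figure D3:**
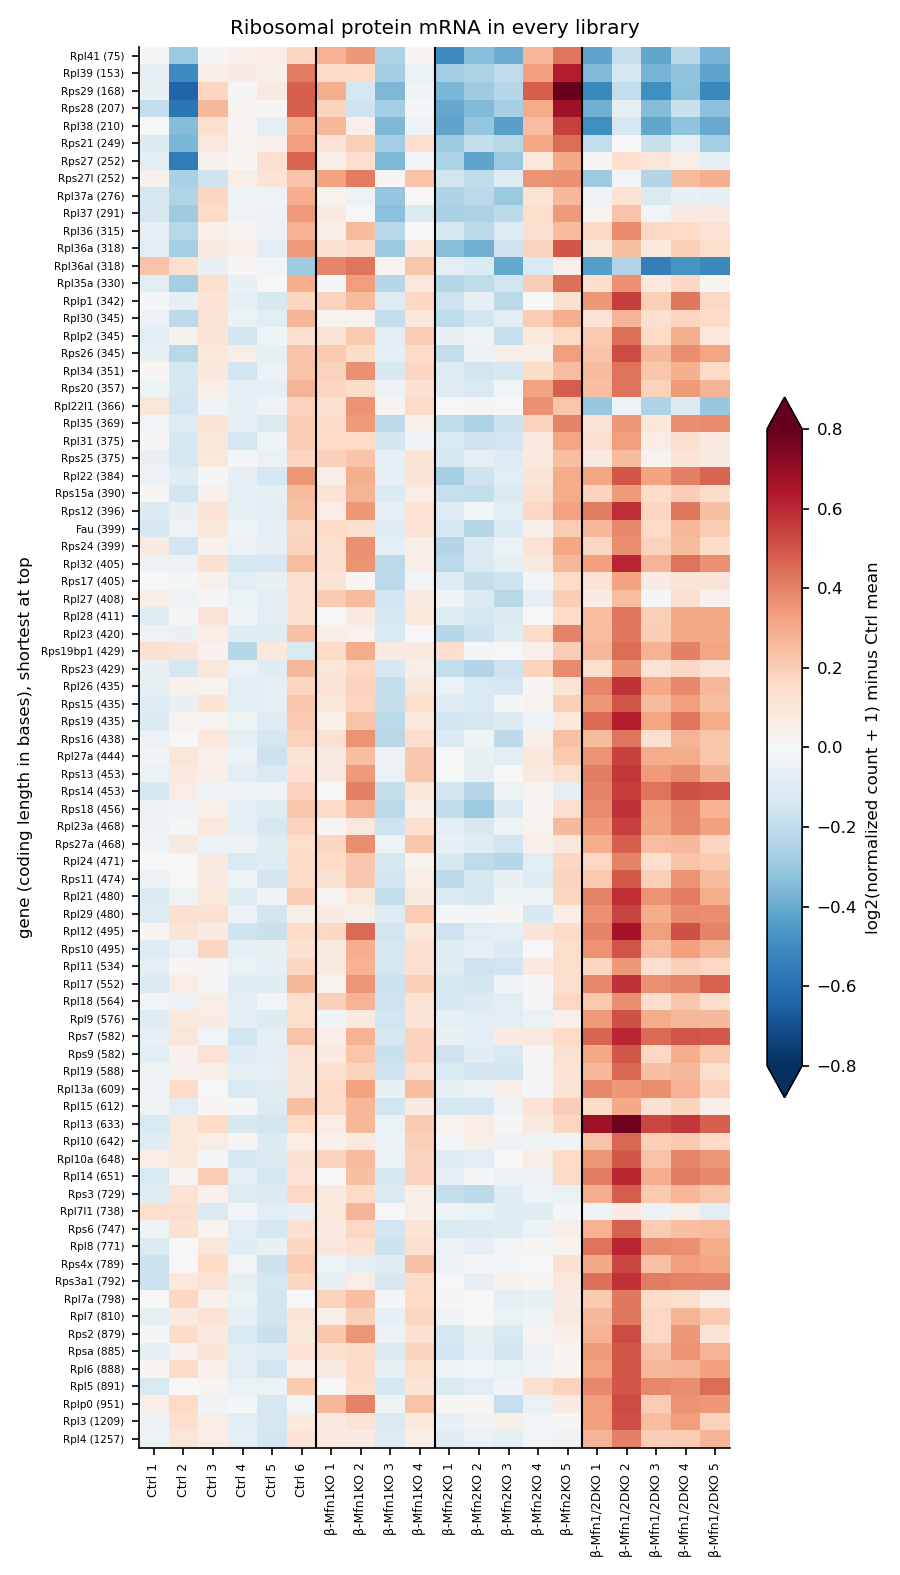
Level of each of 80 ribosomal protein mRNAs in each of the 20 libraries, as log2(normalized count + 1) minus the mean of Ctrl (colour), with genes ordered by coding length from the shortest at the top and vertical lines between groups. Most rows are red in the 5 β-Mfn1/2DKO columns, while the shortest genes at the top are blue there and red in β-Mfn2KO 4 and 5 and Ctrl 6.

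The only member that fell was *Rpl36al*, an autosomal, nearly identical copy of X-linked *Rpl36a*. *Rpl36al* ran from 5367 through a median of 6507 to 7658 in Ctrl and was 8556, 8768, 6666 and 7615 in β-Mfn1KO. It was 6178, 6051, 4913, 6009 and 6714 in β-Mfn2KO and 4810, 5534, 4469, 4719 and 4562 in β-Mfn1/2DKO (-0.45 ± 0.09, adjusted p = 0.00112). The double knockout overlapped Ctrl in 1 library. It was also lower than β-Mfn1KO (-0.71, adjusted p = 2e-05) and than β-Mfn2KO (-0.31, adjusted p = 0.0291). With the authors' factors the value against Ctrl was -0.26 and did not pass. *Rpl36a* itself ran from 2695 through 3208 to 4128 in Ctrl and was 3465, 3853, 3447, 3722 and 3597 in β-Mfn1/2DKO (0.14 ± 0.13, adjusted p = 0.544). *Rpl36al* thus held 66.5% ± 5.76 of the counts of the pair in Ctrl (SD, n = 6), 70.4% ± 1.22 in β-Mfn1KO, 65.1% ± 5.27 in β-Mfn2KO and 57.1% ± 1.39 in β-Mfn1/2DKO. Both genes share stretches with others in the annotation, 20.2% of *Rpl36al* and 84.6% of *Rpl36a*.

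*Rpl22* and *Rpl22l1*, a pair of which either protein can occupy the same place on the large subunit, moved apart. *Rpl22* ran from 3623 through a median of 3823 to 5065 in Ctrl and was 4947, 5611, 4969, 5248 and 5475 in β-Mfn1/2DKO (0.39 ± 0.09, adjusted p = 0.00429). In β-Mfn2KO it was 3309, 3540 and 3726, and 4271 and 4869 in the deep libraries. With depth class in the fit *Rpl22* was at 0.02 and did not pass. *Rpl22l1* ran from 2562 through 2797 to 3244 in Ctrl and was 2309, 2769, 2404, 2634 and 2307 in β-Mfn1/2DKO (-0.20 ± 0.08, adjusted p = 0.0848). *Rpl22l1* did not pass against Ctrl but was lower than in β-Mfn2KO (-0.32, adjusted p = 0.00878) and than in β-Mfn1KO (-0.37, adjusted p = 0.00377). It held 39% to 44.2% of the counts of the pair in Ctrl, 42.7% to 43.2% in β-Mfn1KO, 40.6% to 46.3% in β-Mfn2KO and 29.6% to 33.4% in β-Mfn1/2DKO. The double knockout did not overlap any other group in this share.

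The shares of the other pairs differed less between groups. *Rps27* was at 6940, 7501, 7326, 7098 and 6470 in β-Mfn1/2DKO, near its Ctrl median of 6971 (0.02 ± 0.14, adjusted p = 0.963). Its paralogue *Rps27l*, a target of p53, was at 1762, 2108, 1824, 2550 and 2619 there, against a Ctrl median of 2206 (0.01 ± 0.12, adjusted p = 0.974). *Rps27l* held 23.9% ± 2.55 of the counts of both in Ctrl and 23.5% ± 3.95 in β-Mfn1/2DKO, with β-Mfn1/2DKO 4 and 5 above the other 3. *Rpl7* rose by 0.27 ± 0.06 (adjusted p = 0.00483) while *Rpl7l1* was at -0.01 ± 0.06 (adjusted p = 0.917). *Rpl3* rose by 0.32 ± 0.06 (adjusted p = 0.00113), although *Syngr1* on the opposite strand holds 14.8% as many counts, and no fold is given for *Rpl3l* or *Rpl39l*, which stood at a few counts.

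**Figure D4:**
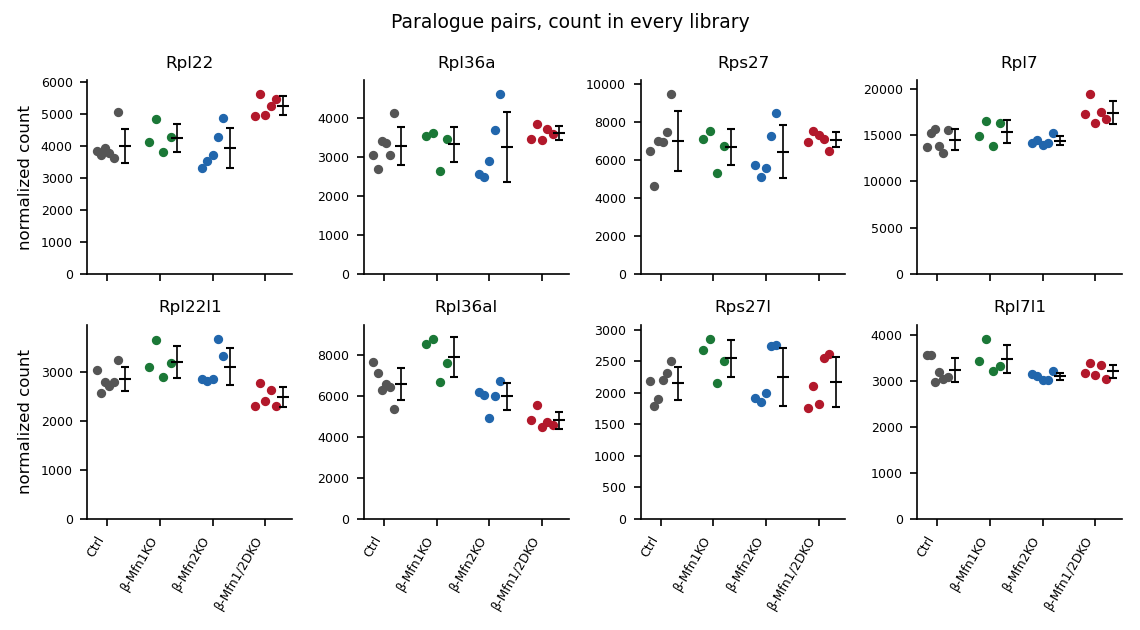
Normalized counts of 4 paralogue pairs in each library, with the mean ± SD of each group beside the points. *Rpl22* is higher and *Rpl22l1* and *Rpl36al* are lower in β-Mfn1/2DKO than in Ctrl on average, while *Rpl36a*, *Rps27*, *Rps27l* and *Rpl7l1* overlap between the groups.

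In islets that lack 1 mitofusin no member passed. In β-Mfn1KO 0 of 86 were called in either direction by edgeR and by DESeq2, beside 0.0279% of all genes by edgeR. An unadjusted edgeR p under 0.05 was found for 2130 of all 28632 genes and for 4 members. These were *Rpl36al* (0.27 ± 0.10), *Rplp0* (0.22 ± 0.08), *Rps27a* (0.18 ± 0.08) and *Rpl13a* (0.17 ± 0.07), all above Ctrl. Of the 86 values 73 lay above 0 and 12 below, with a median of 0.08. Of all 7060 genes of at least 1000 counts, 3722 lay above 0 and 3338 below. By coding length, from the shortest class, members had medians of -0.04, 0.09, 0.08 and 0.08. Other genes of at least 1000 counts had 0.12, 0.12, 0.09 and -0.01. In β-Mfn2KO 0 of 86 were called by either tool, beside 0.0559% of all genes by edgeR. An unadjusted edgeR p under 0.05 was found for 0 members, beside 1208 of all 28632 genes. Among members of at least 1000 counts the values ran from -0.14 to 0.17 with a median of -0.02, and 28 lay above 0 and 54 below. Of all 7060 genes at that level 3731 lay above 0 and 3329 below. A typical standard error was 0.08 in both comparisons, so a change of about that size in a single gene was not detectable at this depth and number of mice.

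Against β-Mfn2KO, the comparison that adds the loss of *Mfn1*, 53 members were higher and 4 lower in β-Mfn1/2DKO, beside 7.09% and 5.9% of all genes, with a median of 0.31. In 45 members every β-Mfn1/2DKO library lay above every β-Mfn2KO library, beside 6.56% of all genes. The 4 lower were *Rpl36al*, *Rpl22l1*, *Rps29* (-0.61, adjusted p = 0.049) and *Rpl39l*, whose call rests on 1 library. Within the libraries over 40 M counts, 5 β-Mfn1/2DKO and 2 β-Mfn2KO, 14 members were higher and 7 lower, beside 1221 and 584 of all 28632 genes, and the median was 0.26. The 14 included *Rps14* (0.55 ± 0.09, adjusted p = 0.00866), *Rpl13* (0.54 ± 0.11, adjusted p = 0.0218) and *Rpl29* (0.47 ± 0.09, adjusted p = 0.0209). The 7 lower were *Rps29* (-1.07 ± 0.12, adjusted p = 0.0025), *Rpl39*, *Rps28*, *Rpl38*, *Rpl41*, *Rps21* and *Rpl22l1*. Within the libraries over 40 M counts the longer members had a median of 0.28 and the 10 short ones of -0.55. The β-Mfn1/2DKO libraries, at 65.5 to 122.9 M counts, were all still deeper than β-Mfn2KO 4 and 5, at 56 and 59.5 M. Depth thus still went with genotype in this comparison, and β-Mfn2KO 4 also had many acinar counts.

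Against β-Mfn1KO, 33 members were higher and 2 lower, *Rpl36al* and *Rpl22l1*, beside 9.67% and 7.69% of all genes, with a median of 0.19. All β-Mfn1KO libraries were under 40 M counts, and with depth class in the fit 0 members were higher, 9 were lower and the median was 0. For β-Mfn1/2DKO against Ctrl, the fit with depth class called 1.48% of all genes higher and 1.06% lower. Its shares of all genes against β-Mfn1KO are not given here. These comparisons share the 5 β-Mfn1/2DKO libraries. The effect of losing *Mfn1* differed between islets without and with *Mfn2* in 19 members, 17 of them with a more positive effect where *Mfn2* was absent, beside 2.88% of all genes, and 2 with a more negative one, beside 3.03%. The 17 included *Rps14*, where losing *Mfn1* changed the log2 level by 0.57 without *Mfn2* and by 0.09 with it (difference 0.48, adjusted p = 0.0196). The 2 were *Rpl36al* (-0.31 and 0.27) and *Rpl22l1* (-0.32 and 0.17). With depth class in the fit 1 member was called upward and 6 downward, and with thinned counts 4 and 2. Counts over all genes in these altered interaction fits are not given here. Without β-Mfn1KO 1 or without β-Mfn1KO 3 the count was 7 and 2, and without β-Mfn2KO 5 it was 30 and 2.

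Other genes of the ribosome pathway were read from lists, whose counts stand beside 9.59% of all genes called higher and 6.86% lower in β-Mfn1/2DKO against Ctrl, or 19.1% and 18.5% of genes of mean at least 1000. Of 21 translation factors and helpers whose mRNAs are known or likely TOP mRNAs, 12 were higher and 1 lower in β-Mfn1/2DKO than in Ctrl, with a median of 0.32. They included *Btf3*, a subunit of the nascent-chain complex at the tunnel exit (0.75 ± 0.07, adjusted p = 1.69e-07), *Rack1*, a scaffold on the small subunit (0.44 ± 0.07, adjusted p = 5.15e-05), and *Eef2*, the translocation factor (0.48 ± 0.08, adjusted p = 0.000212). *Btf3* ran from 5311 to 6310 in Ctrl and averaged 5949 in β-Mfn1KO, 6374 in β-Mfn2KO and 9685 in β-Mfn1/2DKO. Of 17 genes for RNA polymerase I and its factors 5 were higher and 1 lower (median 0.16). *Myc*, which drives ribosome synthesis, was at a mean of 374 in Ctrl and 1170 in β-Mfn1/2DKO (1.64 ± 0.22, adjusted p = 1.24e-05), and the polymerase I factor *Ubtf* rose by 0.31 ± 0.05 (adjusted p = 0.000133).

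Of 50 ribosome assembly genes 15 were higher and 1 lower (median 0.09), in the same comparison and beside the same shares of all genes. *Nhp2* of the box H/ACA particle rose by 0.64 ± 0.12 (adjusted p = 0.000586), *Noc2l* by 0.36 ± 0.05 (adjusted p = 5.05e-05) and the nucleolar chaperone *Npm1* by 0.34 ± 0.07 (adjusted p = 0.00215). *Tsr1*, needed to mature the 40S subunit, fell by 0.41 on the log2 scale (adjusted p = 0.0011). Of 16 chaperones and importins of ribosomal proteins 6 were higher and 1 lower (median 0.16), among them *Pdcd2* (0.34) and *Pdcd2l* (0.37). Of 24 genes for mTOR signalling and TOP regulation 3 were higher and 3 lower (median -0.04). *Sesn2*, a stress-induced inhibitor of mTOR, rose by 0.86 ± 0.08 (adjusted p = 9.08e-08), *Larp1* rose by 0.14 ± 0.04 (adjusted p = 0.0398), and *Larp4* fell by 0.35 on the log2 scale (adjusted p = 0.000511). Of 13 genes that sense stalled ribosomes 4 were higher and 5 lower (median 0.04), with *Zfp598*, which marks collided ribosomes, up by 0.34 ± 0.04, with *Pelo*, which helps to split stalled ribosomes, at -0.39, and with *Nemf* and *Ltn1*, which act on the released large subunit, at -0.36 and -0.24. In the single knockouts 0 genes of these 6 lists passed, by edgeR.

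Markers of some other cell types also differed in β-Mfn1/2DKO. Within that group the acinar sums exceeded the Ctrl range in β-Mfn1/2DKO 4 and 5 only. The 25 acinar markers summed to 450 to 2918 CPM (counts per M counts of the library) in Ctrl and to 754, 1271, 771, 29022 and 74557 in β-Mfn1/2DKO, and 24 of them were called higher, where 9.59% of all genes were called higher and 6.86% lower. In β-Mfn2KO they summed to 791, 2692, 805, 11182 and 1094, and the library at 11182, β-Mfn2KO 4, is 1 of the 2 deep ones of its group. Without it 51 members were higher in β-Mfn1/2DKO than in β-Mfn2KO and 2 lower, and the count over all genes in that fit is not given here. The ribosomal protein share was 3.16% and 2.83% in β-Mfn1/2DKO 4 and 5, the libraries with many acinar counts, and 3.05% to 3.5% in the other 3. Without these 2 libraries 52 members were higher than in Ctrl and 1 lower, beside 7.36% and 3.89% of all genes. With an acinar score in the fit 54 were higher and 1 lower, beside 8.08% and 6.19% of all genes. Of the 8 endothelial markers 7 were higher, with sums of 191 to 286.6 CPM in Ctrl and 306.3 to 473.9 in β-Mfn1/2DKO. The ductal list was mixed, with 3 of 6 markers higher, while *Sox9* and *Cftr* did not pass (adjusted p = 0.253 and 0.713). *Krt7*, 1 of the 3, averaged 22135 normalized counts in Ctrl, far above *Krt19* at 220. *Krt19* and *Muc1* ran widely in β-Mfn1/2DKO, from 124 to 5190 and from 79.3 to 558. Of the 12 β-cell markers 11 were lower, with sums of 141547 to 220042 CPM in Ctrl and 66317 to 97076 in β-Mfn1/2DKO. Of the alpha, delta and PP markers 1 of 8 was higher, of the macrophage and lymphocyte markers 1 of 10 lower, and of the fibroblast and stellate markers 1 of 8 higher. The part of endothelial, ductal and fewer β-cell counts in the rise of ribosomal protein mRNA was not tested.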

How the data were processed

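RNA of 20 islet samples was read as paired ends of 151 bases. Per the labels and the study's methods, the authors trimmed with cutadapt 2.3, checked reads with FastQC 0.11.8, aligned to GRCm38 with STAR 2.6.1b, counted with RSEM 1.3.1 and normalized with DESeq2 1.26.0. The deposited tables hold whole-number counts per Ensembl gene and a normalized signal, which served only for the factors (count over signal) of 1 alternative. No factor was defined for 23.9% of the values. The strand setting is not given in the sources used here. Symbols and lengths came from GENCODE M21.

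Counts were scaled by TMM and fitted in edgeR 4.0.16 (R 4.3.3) with the quasi-likelihood test, 1 model over 4 groups and 28632 genes with no filter, Benjamini-Hochberg adjustment and a threshold of 0.05. Depth ran from 12.4 to 122.9 M counts. No replicate pair agreed within sampling noise (lowest chi-square per degree of freedom 2.66), and p-values measure the spread between these libraries only. Genes of mean at least 100 were named when among the 10 highest or 10 lowest fold changes, in a paralogue pair, or of a special role. Promoter windows came from RefSeq. The fit was tested on simulated data. Of the members, 3 enter the counts but are not reported singly here. Alternatives covered DESeq2 1.42.0, scaling, filters, covariates, thinning to 12400687 counts and left-out libraries. The members and lists were chosen with earlier results of these data known.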

Additional observations from a re-analysis of the deposited data

Results flagged for a closer look

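In 9 of the 160 groups of 4 to 6 libraries tested, over the named genes, 1 library lay far from the rest of its group by Dixon's criterion, and chance gives about 1 in 20. β-Mfn1/2DKO 2 was high for *Rpl10* (24498 normalized counts, others 19867 to 20920), *Rpl11* (18621, others 15962 to 16692), *Rps3a1* (34024, others 29969 to 30908) and *Rps6* (26702, others 22176 to 23305). Ctrl 6 was high for *Rpl11* (16481, others 13845 to 14780) and *Rpl22* (5065, others 3623 to 3945). β-Mfn1KO 3 was low for *Rpl36a* (2650, others 3471 to 3624). For *Rps4x*, β-Mfn1KO 4 was high (15989, others 12686 to 13192), as was β-Mfn2KO 5 (14789, others 13112 to 13521).

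For 19 members the log2 effect of losing *Mfn1* differed between islets without and with *Mfn2* (edgeR, interaction term, all 20 libraries). The difference was 0.48 for *Rps14* (adjusted p = 0.0196), 0.46 for *Rps19* and 0.44 for *Rpl21*. It was 0.43 for *Rps3a1*, 0.42 for *Rpl13*, 0.40 for *Rpl8* and 0.39 for *Rpl9*. It was 0.37 for each of *Rps3*, *Rpl5* and *Rpl26*, 0.35 for *Rpl29*, 0.33 for both *Rpsa* and *Rpl28*, and 0.30 for *Rpl4* (adjusted p = 0.0441). For the 17 members with a positive difference the effect with *Mfn2* present lay between 0 and 0.12, and that without it between 0.33 and 0.57. The difference was -0.49 for *Rpl22l1* (adjusted p = 0.013) and -0.58 for *Rpl36al* (adjusted p = 0.0109). With depth class in the fit 1 member passed upward and 6 downward, and the count over all genes in that fit is not given here.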

How the results depend on the processing

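The rise against Ctrl kept its direction and stayed within 1.5 times its count of 57 passing members in every alternative except depth class as a covariate, which gave 9 (1 higher, 8 lower) and a median of 0.1. DESeq2 gave 52 higher and 2 lower, the like counts were 62 and 0 with the authors' factors and 41 and 3 with thinned counts, and leaving out 1 library gave 48 to 61 in all, with medians of 0.27 to 0.34. Total-count scaling moved the median of all genes from 0.06 to 0.19 and that of the members to 0.42. Over all genes the upward share of calls was 58.3%, 48.9% with DESeq2, 48.2% with the authors' factors and 42.4% with thinned counts, and the fit with depth class called 425 higher and 303 lower where the fit without it called 2745 and 1965.

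Against β-Mfn2KO, 26 members passed with depth class (17 higher), beside 888 of all 28632 genes higher and 795 lower. At like depth 21 members passed (14 higher), beside 1221 of all genes higher and 584 lower, and the share ratio fell to 1.22. Against Ctrl the share ratio was 1.21 without the 100 highest genes in the total. Against β-Mfn1KO, total-count scaling gave 59 passing and a median of 0.36, depth class 9, all lower, and a median of 0, length and GC offsets 53, and thinned counts 21. The interaction gave 30 with total-count scaling (median 0.34), 7 with depth class, 32 with length and GC offsets, 6 with thinned counts, and 9 to 32 without 1 library, of which without β-Mfn1KO 1 or 3 gave 9, without β-Mfn2KO 1 or 2 gave 12 and without β-Mfn2KO 5 gave 32. Leaving out 1 library gave 24 to 46 against β-Mfn1KO and 49 to 66 against β-Mfn2KO. Counts over all genes in the altered fits against β-Mfn1KO and of the interaction are not given here. *Fau* turned to -0.03 with depth class and *Rps21* to 0.25 with the authors' factors, an alternative chosen after seeing the data. Among named members 45 other values changed sign while passing in neither fit. Both single knockouts gave 0 passing members in every alternative. The cause of these shifts was not tested.

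Same-numbered libraries deviated together in part, with r over 0.1 in 21 of 27 pairs (-0.102 to 0.579) and 10 of 20 libraries closest to their own number. The mean r was 0.246 for the same number and -0.0544 for other numbers. The labels do not say what the numbers mark, so they were not taken as pairs in the main fit. With the replicate block 58 members were higher and 1 lower than in Ctrl, beside 10% and 7.24% of all genes. The median of the members was 0.32, and *Rpl11* passed (0.23, adjusted p = 0.0222).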
